A study of Mus musculus with 50 samples.

Results

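RTS0068460 and RTS0068462 are probe identifiers of the GeoMx mouse whole transcriptome kit, and they were the pair lower in injured than in peri-injured regions of ozone-exposed mouse lung in both tissue segments captured. The pair makes up 2 of the 20175 identifiers analysed. It was chosen from the injury comparison itself, as the identifiers lower at an adjusted p under 0.05 in CD68+ and in CD45- segments, so the injury values below describe the choice and are not tests of it. The files give identifiers without gene names, and none of them matched the reference tables, so neither the gene behind each identifier nor its function is stated, and the CD68+ and CD45- segments could not be checked against marker genes.

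In GeoMx profiling, RNA probes carrying a cleavable barcode are hybridised to a tissue section, and the barcodes of a chosen area are released by light and counted, so that each count stands for 1 probe molecule in that area. Ozone is an oxidant gas that damages the airway and alveolar lining, after which macrophages gather at the damaged sites. Surfactant protein C (SP-C) is made by alveolar type 2 cells, and its SP-CI73T mutant form is misrouted in those cells and is linked to interstitial lung disease. CD45 marks leukocytes and CD68 marks macrophages.

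There were 4 sections, each taken as 1 mouse. They came from an 80-week-old SP-CI73T mutant mouse after ozone, a 12-week-old SP-CI73T mutant mouse after ozone, a 12-week-old SP-C wild type mouse after ozone, and a 12-week-old SP-C wild type mouse in filtered air. Ozone was given to the whole body at 0.8 ppm for 3 hours, and lungs were taken 72 hours later. Each mutant section had 3 injured and 3 peri-injured regions, the wild type ozone section had 4 of each, and the air section had 4 regions called healthy. In all 24 regions the CD68+ segment (CD45+CD68+ macrophages) and the CD45- segment (non-immune cells) were collected separately, which gave 48 segments. What drives the mutant allele, and how a region was judged injured, are not given in the sources used here. Regions of 1 section share an animal, so an SD below is the spread within 1 animal. Sections of different condition differ by 1 animal each and were compared without a test. Both mutant sections were on 1 collection plate and both wild type sections on another, and genotype cannot be told apart from plate.

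CD68+ segments held 20043 to 101968 counts and CD45- segments 32705 to 300708 counts. Levels are given as CPM, counts per 1000000 after TMM scaling (a factor per segment that sets most identifiers level). In these segments the median identifier stood at 0 to 42.7 CPM. RTS0076055, an identifier holding as much as 15.9% of a segment's counts (young mutant, injured, CD68+), can bear on that scaling, and injury differences without it are given at the end.

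Both members were among the more abundant probes of these lungs by mean level, though not in every segment. RTS0068460 was counted 3091 times in all and was present in every segment. In CD68+ segments it spanned 19.4 to 2504 CPM with a median of 254 CPM, and in CD45- segments 138 to 3002 CPM with a median of 927 CPM. RTS0068462 was counted 1789 times and spanned 0 to 1372 CPM in CD68+ segments (median 143 CPM) and 25.1 to 1522 CPM in CD45- segments (median 505 CPM). By mean level RTS0068460 ranked 68th of the 20175 identifiers in CD68+ and 24th in CD45- segments, and RTS0068462 160th and 84th. Neither was counted in the 2 no template controls, which held 4 and 229 counts in all.

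**Figure D1:**
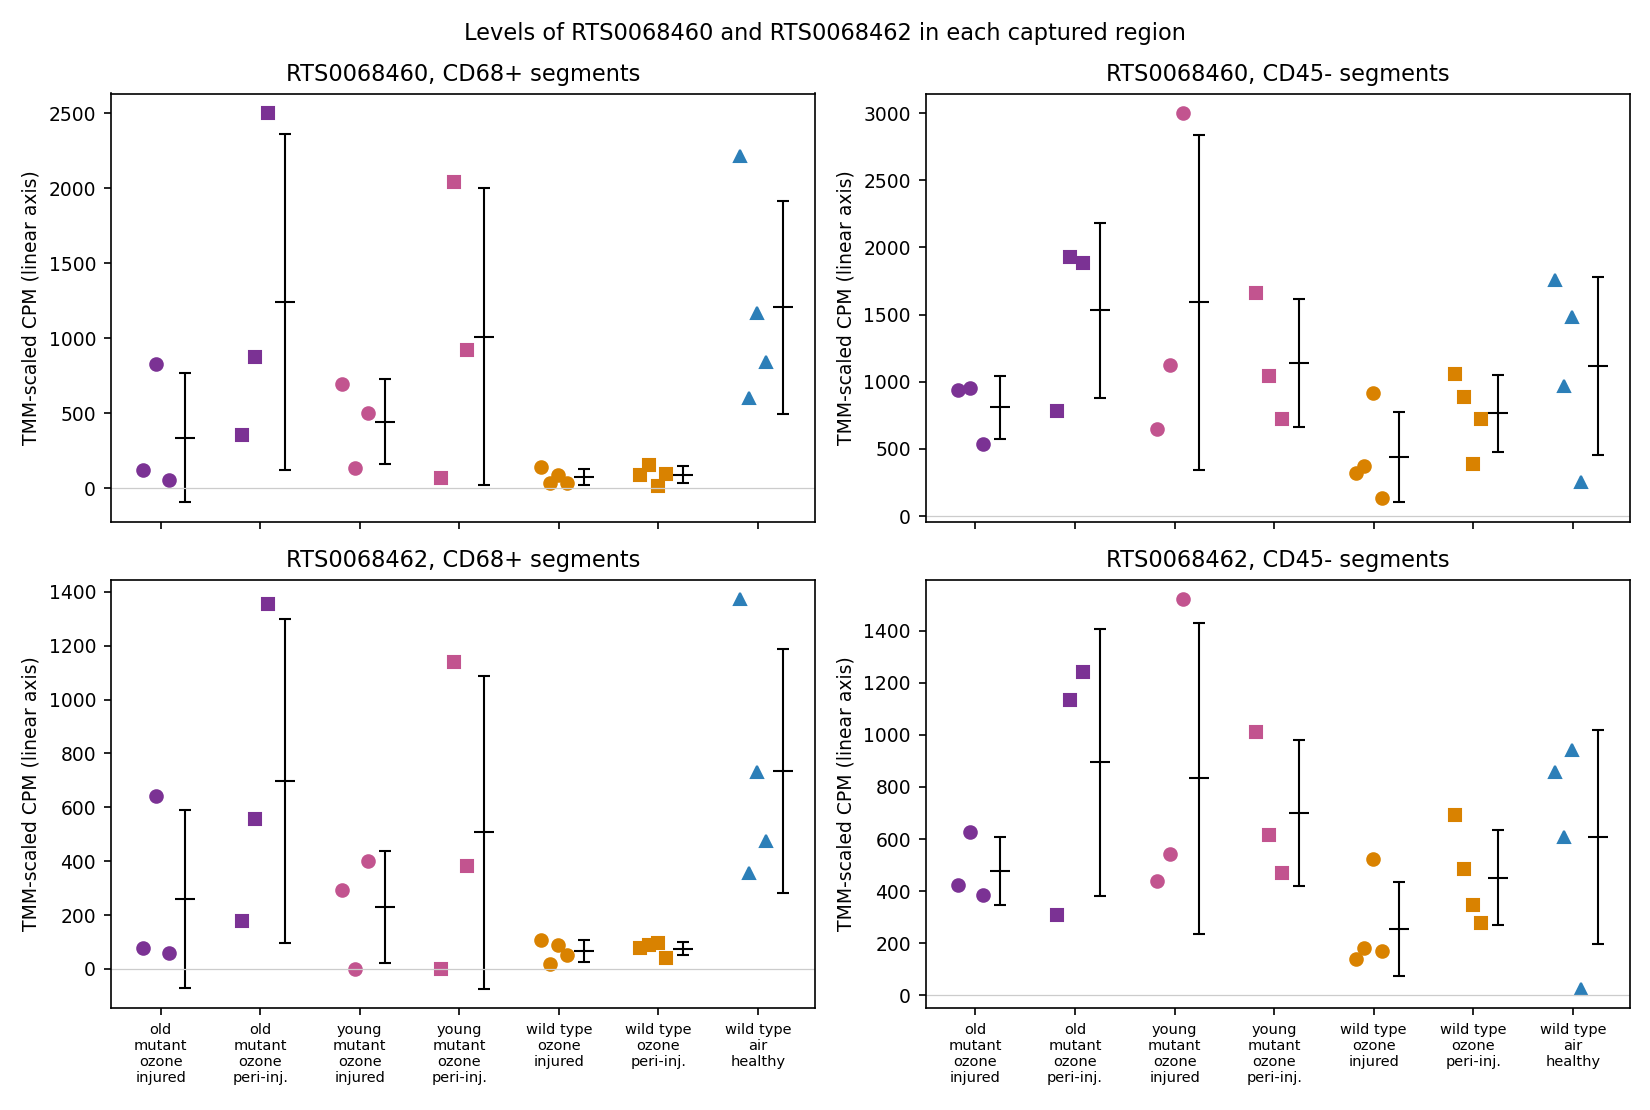
Levels of RTS0068460 (top) and RTS0068462 (bottom) in CD68+ (left) and CD45- (right) segments, as TMM-scaled CPM on a linear axis, for the 7 groups of section and region type. Each point is 1 region (circle injured, square peri-injured, triangle healthy), and the bar beside it is the mean with 1 SD between regions. In CD68+ segments all 8 regions of the wild type ozone section lie near 0 for both members, while the air regions lie between 601 and 2214 CPM for RTS0068460.

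The lowest mean levels of both members were in macrophage segments of the wild type ozone section. There RTS0068460 had 145, 37.8, 87.6 and 33.6 CPM in injured regions 2, 3, 4 and 9, and 91.5, 156, 19.4 and 99.5 CPM in peri-injured regions 5, 6, 7 and 15. These levels rest on 1 to 8 counts a region, in segments of 43955 to 78441 counts. In regions 3, 7 and 9 RTS0068460 was only at the level of the segment's median identifier, and in region 3 RTS0068462 was below it. RTS0068462 had 109, 18.9, 87.6 and 50.5 CPM in the injured regions and 76.2, 89.1, 97.2 and 39.8 CPM in the peri-injured regions, from 1 to 6 counts. Injured and peri-injured regions of this animal overlapped for both members, so both region types were low. In captured tissue, fewer cells of a type and less of an RNA per cell cannot be told apart.

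In the CD68+ segments of the air section, RTS0068460 had 2214, 601, 1172 and 839.9 CPM in healthy regions 8, 10, 11 and 12. RTS0068462 had 1372, 356, 732 and 477 CPM in the same regions. Every healthy region exceeded all injured and peri-injured regions of the ozone-exposed wild type mouse for both members. The mean of RTS0068460 was 75.9 ± 52.0 CPM in injured regions and 1206 ± 711 CPM in healthy regions of the air section (SD, n = 4 each). As a ratio of these means it was 15.9-fold lower in injured regions. The log2 difference was -3.57, between means of log2 CPM with a prior count of 2, so it is not the log2 of that ratio. Log2 differences between sections below are likewise between means of log2 CPM. For RTS0068462 the means were 66.4 ± 39.7 CPM in injured regions and 734 ± 453 CPM in healthy regions (SD, n = 4 each), which is 11.1-fold lower in injured regions (log2 difference -2.99). Of the 426 identifiers kept for that comparison, 9 (2.11%) had a log2 difference of -1 or below and no ozone region reaching an air region, these 2 among them, and 15.5% were higher by the same rule. Nothing is read from that count, since both members had fewer than 10 counts in every injured region, so they passed the low-count filter through the air regions alone and had to differ, and since the injured and peri-injured values of this section also entered the choice of the pair.

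Peri-injured regions of the ozone section stood apart from the air section in the same way, with the air regions shared by both comparisons. RTS0068460 averaged 91.6 ± 56.0 CPM in peri-injured regions, 13.2-fold below the air mean (log2 difference -3.39), and RTS0068462 averaged 75.6 ± 25.3 CPM, 9.72-fold below it (log2 difference -2.77). There 4 of 330 identifiers (1.21%) were lower by the rule and 10.6% higher, and the members again passed the filter through the air regions alone, so nothing is read from it. The median identifier kept was itself higher in the ozone section, by 0.41 in the injured and 0.27 in the peri-injured comparison on the log2 scale. Per area the air regions were again the highest, with 0.492 ± 0.362 counts of RTS0068460 per 1000 area units in injured, 0.486 ± 0.270 in peri-injured and 6.80 ± 3.95 in air regions (SD, n = 4 each), while injured and peri-injured means changed places and differed by less than their SD. The ozone segments were the deeper ones, with 43955 to 78441 counts against 24253 to 58042 in air. With 1 animal in ozone and 1 in air, exposure and animal cannot be told apart.

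In CD45- segments the same comparison left the regions overlapping. RTS0068460 had 324, 372, 916 and 138 CPM in injured regions 2, 3, 4 and 9 of the wild type ozone section, against 1757, 970.1, 1484 and 251 CPM in the air regions 8, 10, 11 and 12. RTS0068462 had 139, 179, 524 and 170.4 CPM in the injured regions, against 856, 609, 941 and 25.1 CPM in the air regions. Air region 12 was low for both members, with 10 counts of RTS0068460 and 1 count of RTS0068462, while the other air regions were above every injured region for both members. The log2 differences between injured and air regions were -1.28 for RTS0068460 and -0.73 for RTS0068462, where 0.48% of identifiers were lower by the rule. Per area they were -0.77 and -0.26, and without air region 12 they were -1.86 and -1.73. In peri-injured regions they were -0.32 and 0.15, also with overlap (0.67% of identifiers lower by the rule). The sign for RTS0068462 there was not stable, at -0.13 with library totals, -0.08 with upper quartile factors, -0.07 with a prior count of 10, -0.07 without peri-injured region 5 and -0.85 without air region 12. The median identifier kept in CD45- segments was higher in the ozone section, by 0.48 in the injured and 0.46 in the peri-injured comparison. Both members lay below that median in both comparisons. All further comparisons of sections below overlapped for both members.

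Within the ozone sections, the fit that chose the pair gave log2 fold changes between injured and peri-injured regions, on 6 sums per segment type. In CD68+ segments they were -1.53 (SE 0.25) for RTS0068460 and -1.32 (SE 0.26) for RTS0068462, and in CD45- segments -0.63 (SE 0.15) and -0.73 (SE 0.15). The SE is that of the fit and not the spread between animals. In DESeq2 the CD68+ values were -1.41 (SE 0.47) and -1.22 (SE 0.48), and neither member was called in either segment type. As a mean over sections of region mean differences, the CD68+ values were -0.94 and -0.81, and the CD45- values -0.51 and -0.48. At the adjusted p under 0.05 that set the choice, 8 of 3176 identifiers (0.252%) were lower in CD68+ segments, 24 of 16703 (0.144%) in CD45- segments and 2 of 3175 (0.063%) in both. The larger of each member's adjusted p-values in edgeR was 0.0420 for RTS0068460 and 0.0163 for RTS0068462, both in CD45- segments. Just outside the choice stood RTS0081631, with log2 fold changes of -1.84 in CD68+ and -1.81 in CD45- segments and a larger adjusted p of 0.318 in edgeR, and RTS0066050, with -0.42 and -0.32 and 0.706. RTS0081631 had 30.9% of its counts in a single segment, against 9.71% for RTS0068460 and 10.2% for RTS0068462.

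The old mutant section showed the widest gap in macrophage segments. RTS0068460 had 123, 833 and 57.9 CPM in injured regions 8, 10 and 12, against 353, 876 and 2504 CPM in peri-injured regions 7, 9 and 11. RTS0068462 had 78.1, 643 and 57.9 CPM in the injured regions, against 176 CPM, 557 CPM and 1355 CPM in the peri-injured regions. For both members injured regions 8 and 12 were below every peri-injured region, and injured region 10 was within their range. The mean log2 difference was -2.11 for RTS0068460 and -1.60 for RTS0068462.

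In CD45- segments of the old mutant, RTS0068460 had 937, 953 and 535 CPM in the injured regions, against 783, 1928 and 1883 CPM in the peri-injured regions. RTS0068462 had 421, 628 and 385 CPM in the injured regions, against 306, 1136 and 1243 CPM in the peri-injured regions. Peri-injured regions 9 and 11 were above every injured region for both members, and peri-injured region 7 was not. The mean log2 difference was -0.84 for RTS0068460 and -0.68 for RTS0068462.

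The young mutant section did not share this order in its CD45- segments. There RTS0068460 had 645, 1126 and 3002 CPM in injured regions 1, 2 and 3, against 1660.5, 1044 and 721 CPM in peri-injured regions 4, 5 and 6. RTS0068462 had 440.2, 540.4 and 1522 CPM in the injured regions, against 1013, 617 and 470.4 CPM in the peri-injured regions. The highest level of either member in all 48 segments was in injured region 3. The mean log2 difference was 0.27 for RTS0068460 and 0.10 for RTS0068462, while the ratio of the CPM of summed counts between injured and peri-injured regions was 1.02 for RTS0068460 and 0.886 for RTS0068462, so that the sign for RTS0068462 depended on how regions were combined.

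In macrophage segments of the young mutant, RTS0068460 had 694, 137 and 502 CPM in the injured regions, against 68.2, 2046 and 924 CPM in the peri-injured regions. RTS0068462 had 292, 0 and 401 CPM in the injured regions, against 0, 1140.1 and 383 CPM in the peri-injured regions. The counts of 0 were in injured region 2 and peri-injured region 4, the shallowest CD68+ segments with 20181 and 20043 counts, where 0 allows up to 102 CPM (3 counts, counting error only). Peri-injured regions 5 and 6 were above every injured region for RTS0068460, and peri-injured region 4 was below them all. The mean log2 difference was -0.53 for RTS0068460 and -0.60 for RTS0068462.

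In CD45- segments of the wild type ozone section, peri-injured regions 5, 6, 7 and 15 had 1057, 887, 390.1 and 722 CPM of RTS0068460 and 692, 486, 348 and 276 CPM of RTS0068462. Of the injured regions given above, 3 of 4 were below every peri-injured region for both members, and region 4 was the exception. The mean log2 difference between injured and peri-injured regions was -0.96 for RTS0068460 and -0.88 for RTS0068462 in CD45- segments, and -0.18 and -0.22 in CD68+ segments. Counting each member, ozone section and segment type as 1 case, the mean log2 level was lower in injured regions in 10 of 12 cases, and injured and peri-injured regions overlapped in 12 of 12. These cases come from 3 animals, and their values set the choice of both members, which varied together, so nothing is read from the count. The pooled fit set the choice, so the pair is lower in it by construction. By section, mean log2 levels were lower in injured regions in the old mutant and in wild type CD45- segments, with overlap. They were also lower in young mutant CD68+ segments, where no injured region was below every peri-injured region. In young mutant CD45- segments they were higher, and in wild type CD68+ segments both region types were low.

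Between genotypes, both members were higher on average in the young mutant than in the wild type ozone section. In injured CD68+ segments RTS0068460 averaged 444 ± 283 CPM in the mutant (n = 3) and 75.9 ± 52.0 CPM in the wild type (SD, n = 4), a log2 difference of 2.10, and in CD45- segments 1591 ± 1245 CPM in the mutant and 438 ± 335 CPM in the wild type, a log2 difference of 1.79. For RTS0068462 the log2 differences in injured regions were 0.84 in CD68+ and 1.60 in CD45- segments. In peri-injured regions they were 2.44 and 0.57 for RTS0068460 and 1.23 and 0.62 for RTS0068462, CD68+ first. Single regions of the young mutant moved the CD68+ values of RTS0068462 most, from 0.09 without region 3 to 2.12 without region 2 in injured regions, and from 0.06 without region 5 to 2.81 without region 4 in peri-injured regions. For RTS0068460 in peri-injured regions the range was 1.51 to 3.75 in CD68+ and 0.26 to 0.85 in CD45- segments when 1 region was left out. No left-out region turned a sign in the comparison of genotypes. Regions of both animals overlapped each time, so that no member met the rule (a log2 difference of 1 or more in size, regions apart), which 4.51% and 0.758% of identifiers met upwards in injured CD68+ and CD45- segments and 1.06% and 0.951% in peri-injured ones. RTS0068462 in injured CD68+ segments, and both members in peri-injured CD68+ segments, were under the low-count filter of these comparisons. RTS0068460 in injured CD68+ segments passed that filter through the mutant regions alone. It had 2 to 8 counts in the wild type regions there, so nothing is read from that difference.

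Between the old and the young mutant the directions varied. In injured regions RTS0068460 had log2 differences of -0.84 in CD68+ and -0.72 in CD45- segments, old minus young, and RTS0068462 had 0.25 and -0.59. In peri-injured regions RTS0068460 had 0.74 in CD68+ and 0.39 in CD45- segments, and RTS0068462 had 1.25 and 0.19. Single regions decided several of these signs. Without young mutant region 4 the peri-injured CD68+ values were -0.56 for RTS0068460 and -0.34 for RTS0068462, against 1.67 and 2.42 without its region 5. For RTS0068462 the injured CD68+ value ran from -1.04 without young mutant region 2 to 0.99 without its region 3, and was -0.70 without old mutant region 10. Its peri-injured CD45- value ran from -0.16 without old mutant region 11 to 0.81 without old mutant region 7. The injured values of RTS0068460 kept their sign, from -1.83 to -0.15 in CD68+ and from -1.21 to -0.12 in CD45- segments. The regions of both animals overlapped in all of these. The rule was met in either direction by 7.29% of identifiers in injured CD68+ segments and 0.768% in injured CD45- segments, and by 5% in peri-injured CD68+ segments and 1.32% in peri-injured CD45- segments.

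Ordered by mean level, RTS0068460 in CD68+ segments ran down from old mutant peri-injured (1244 ± 1122 CPM, n = 3) through air (1206 ± 711 CPM, n = 4), young mutant peri-injured (1013 ± 992 CPM, n = 3), young mutant injured (444 ± 283 CPM, n = 3), old mutant injured (338 ± 430 CPM, n = 3), wild type peri-injured (91.6 ± 56.0 CPM, n = 4) and wild type injured (75.9 ± 52.0 CPM, n = 4). Neighbours in this order overlapped at every step. In CD45- segments RTS0068460 ran from young mutant injured (1591 ± 1245 CPM) to wild type injured (438 ± 335 CPM). RTS0068462 had air at the top of its CD68+ order and wild type injured (66.4 ± 39.7 CPM) at its foot, and in CD45- segments ran from old mutant peri-injured (895 ± 513 CPM, n = 3) to wild type injured (253 ± 181 CPM, n = 4). Neighbours overlapped at every step in these orders too, and the wild type ozone injured group was the lowest of the 7 in all 4 orders.

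The comparison of segments was not used to choose the pair and was tested over sections. In the wild type ozone section RTS0068460 had a level of 82.5 CPM over summed CD68+ segments and 555 CPM over summed CD45- segments, 6.72-fold apart. RTS0068462 had 71.4 CPM over the CD68+ segments and 318 CPM over the CD45- segments, 4.45-fold apart, and both members were lower in the CD68+ segment in 8 of 8 regions. These 8 regions share 1 animal, and the CD68+ levels rest on 1 to 8 counts a region. In the air section RTS0068460 was lower in the CD68+ segment in 2 of 4 regions and its CD45- level was 0.909 times the CD68+ level. RTS0068462 was likewise lower in the CD68+ segment in 2 of 4 air regions, at 0.831 times. In the old mutant section the CD45- level was 1.31-fold that of CD68+ for RTS0068460 and 1.32-fold for RTS0068462, and in the young mutant section 1.65-fold and 1.88-fold. Over all regions the CD68+ segment was lower in 18 of 24 for RTS0068460 and in 19 of 24 for RTS0068462. The share of all identifiers lower in as many regions was not computed, so nothing is read from these counts of regions.

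**Figure D2:**
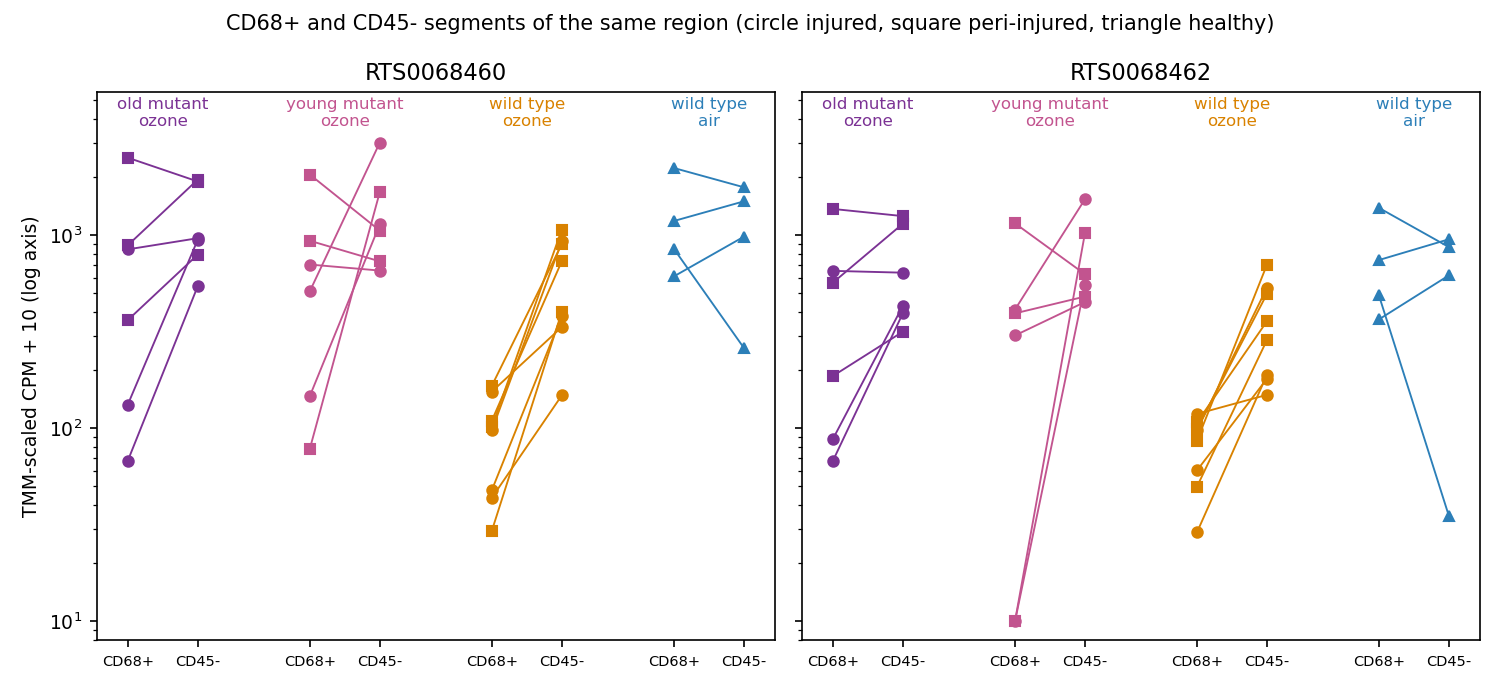
TMM-scaled CPM plus 10 (log axis) of RTS0068460 (left) and RTS0068462 (right) in the CD68+ and CD45- segment of each region, joined by a line, by section. Circles are injured, squares peri-injured and triangles healthy regions. All 8 lines of the wild type ozone section go up towards CD45-, while 2 of the 4 air lines go down.

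Across the 4 sections, edgeR's quasi-likelihood test on 8 sums did not call either member. The log2 difference, CD68+ minus CD45-, was -0.58 for RTS0068460 (95% interval -1.08 to -0.07 before adjustment, edgeR adjusted p = 0.312) and -0.49 for RTS0068462 (95% interval -0.94 to -0.04, edgeR adjusted p = 0.347). Of 14591 identifiers tested, 435 (2.98%) were called, 161 (1.1%) as lower and 274 (1.88%) as higher in CD68+ segments. The intervals rest on an SE of 0.25 for RTS0068460 and 0.22 for RTS0068462. The SE was 0.56 and 0.36 with a robust dispersion prior, and 0.57 and 0.32 in DESeq2. With those SEs both intervals would be wide enough to take in no difference. Without the wild type ozone section the log2 differences were -0.10 and -0.13. With each region as a library and a block for the region, which keeps both segments of a region together, they were -1.09 (edgeR adjusted p = 2.43e-17) and -0.92 (edgeR adjusted p = 6.04e-11), where p-values over regions of the same animal are too small. Over all alternatives the adjusted p ran from 2.43e-17 to 1.00 for RTS0068460 and from 6.04e-11 to 1.00 for RTS0068462. Whether the segment difference differed between sections was not tested, since each condition is 1 animal.

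The pair varied together. Over the 48 segments the log2 levels of both had a Pearson correlation of 0.92 and a Spearman correlation of 0.95, given as a description over segments that share animals and libraries. With the mean of every group of section, region type and segment taken out, the Pearson correlation was 0.89, so the members also varied together among regions of 1 kind. Within single sections and segment types the Pearson correlation of the levels, region types together, was 0.84 to 1.00 over 4 to 8 regions. The exception was 0.36 in the CD68+ segments of the wild type ozone section, where both members had 8 counts or fewer. With group means taken out, the values were 0.76 to 1.00, and 0.35 in that exception.

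**Figure D3:**
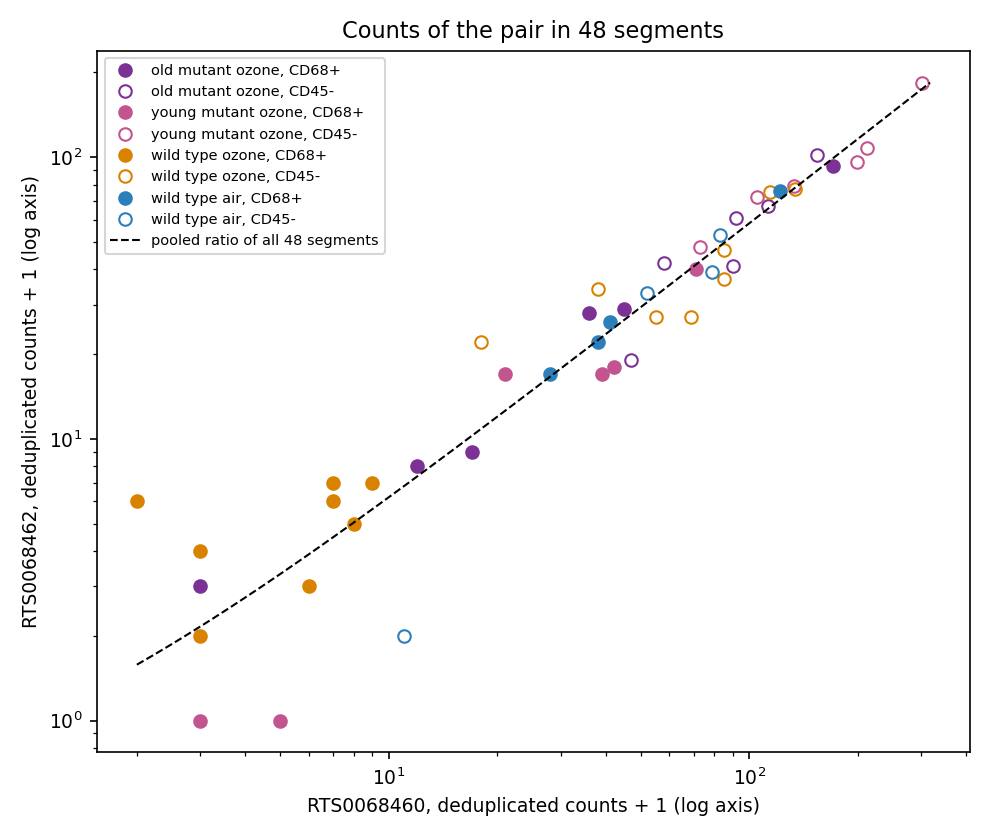
Deduplicated counts plus 1 of RTS0068460 (x) and RTS0068462 (y) in each of 48 segments, on log axes, with filled points for CD68+ and open points for CD45- segments. The dashed line is the pooled ratio, 1.73 counts of RTS0068460 for each count of RTS0068462. Segments of all 4 sections lie along the same line, with the widest scatter at low counts.

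The ratio between the members varied little between groups of segments. RTS0068462 made up 1789 of the pair's 4880 counts, a share of 36.7% (95% exact Clopper-Pearson interval 35.3% to 38.0%, counting error only). The share was 37.1% in CD68+ and 36.5% in CD45- segments, and 36.0% in injured, 37.1% in peri-injured and 36.8% in healthy regions. By section it was 37.2% in the old mutant, 35.9% in the young mutant, 37.1% in the wild type ozone and 36.8% in the air section. The chi-square of the share over the 48 segments was 1.08 per degree of freedom, where counting error alone gives about 1. It was 0.773 in CD68+ and 1.42 in CD45- segments, while the level of RTS0068460 itself ranged from 19.4 to 3002 CPM. By region type the chi-square was 1.31 in injured, 1.06 in peri-injured and 0.722 in healthy regions. Of the sections it was highest in the wild type ozone section, at 1.62. In the 34 segments with at least 30 counts of the pair the share spanned 27.7% to 55.3%, the top being region 9 (wild type, ozone, injured, CD45-) with 21 of 38 counts. The 95% interval of that share, the highest of 34, was 38.3% to 71.4%, above the pooled share.

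Among the 1125 other identifiers with a mean of at least 100 CPM, the one most like each member was the other member. The second was RTS0068463 for both, with Pearson correlations of 0.74 with RTS0068460 and 0.77 with RTS0068462, and of 0.74 and 0.76 with group means taken out. The third was RTS0078302 for RTS0068460 (0.67) and RTS0076243 for RTS0068462 (0.68), and with group means taken out RTS0069393 for both (0.65 and 0.64). The median of the other identifiers was 0.03 with RTS0068460 and 0.08 with RTS0068462.

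**Figure D4:**
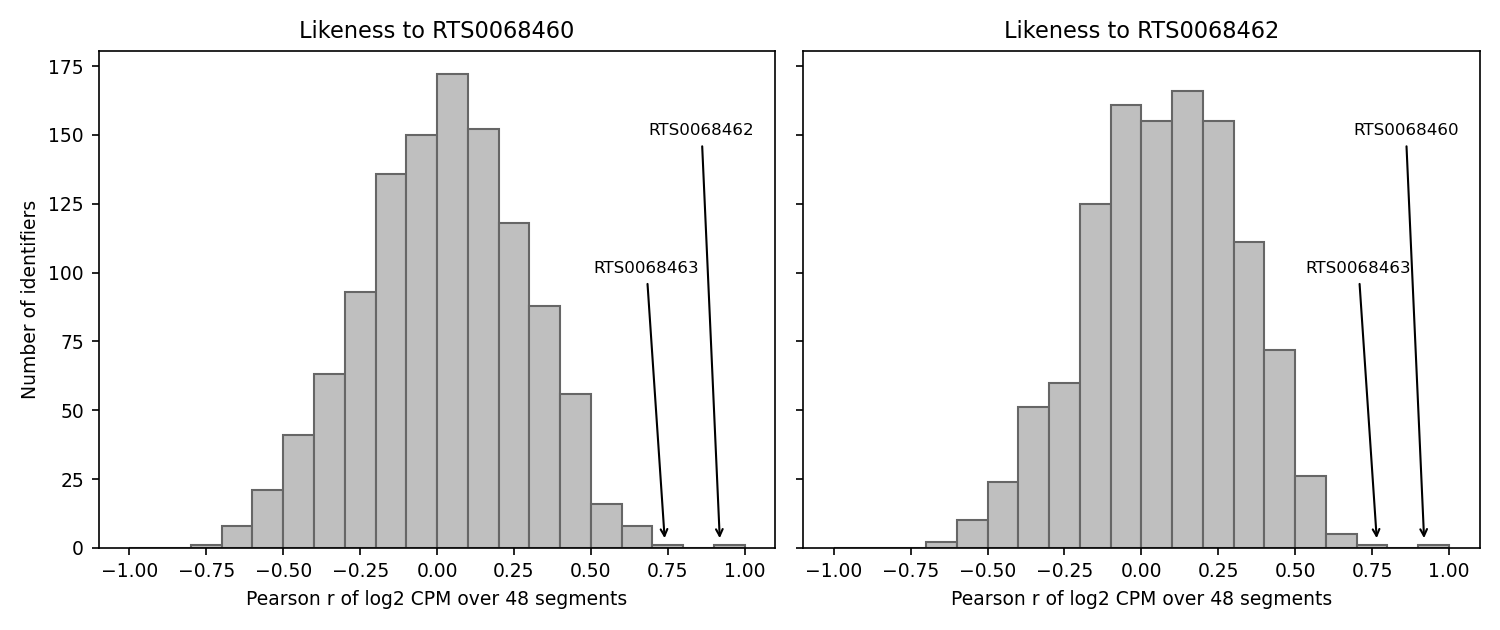
Number of identifiers by Pearson correlation of log2 CPM with RTS0068460 (left) and RTS0068462 (right) over 48 segments, among identifiers with a mean of at least 100 CPM. Arrows mark the other member, at 0.92, and RTS0068463, at 0.74 and 0.77, beyond the bulk around 0.

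Of the identifiers numbered within 3 of the pair, RTS0068463 had the highest correlations with it. It averaged 114 CPM from 448 counts, with its highest level (697 CPM) in the CD45- segment of young mutant injured region 3, where both members were also highest. In CD68+ segments it averaged 26.7 ± 23.0 CPM in wild type injured, 47.1 ± 7.90 CPM in wild type peri-injured and 84.9 ± 41.2 CPM in healthy regions (SD, n = 4 each). These means rest on 0 to 3, 2 to 3 and 2 to 8 counts a region, too few to rank the groups. Its counts were 12.7% of those of RTS0068460 and RTS0068463 together, with a chi-square of 2.06 per degree of freedom over segments, so its ratio was less even than that of the pair. RTS0068461, numbered between the members, averaged 24.2 CPM and had correlations of 0.06 and 0.09 with them. The other listed numbers, RTS0068457, RTS0068458, RTS0068464 and RTS0068465, averaged 19.8 to 32.8 CPM, with correlations of -0.44 to 0.21. A number says nothing here about which gene a probe reads.

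Regions of 1 kind in 1 animal differed more in these members than in most identifiers. Within groups the SD of log2 CPM in CD68+ segments was 1.30 for RTS0068460 and 1.52 for RTS0068462, against 0.55 for the median of the 988 identifiers at that level, where they ranked 12th and 2nd. In CD45- segments it was 0.89 and 1.08, against 0.39 for the median of 1323 identifiers, where they ranked 23rd and 15th. Both segments of 1 region were only weakly alike, with Pearson correlations over 24 regions of 0.49 for RTS0068460 and 0.28 for RTS0068462, and of 0.23 and 0.22 with group means taken out. With group means taken out, the correlation with log2 depth was 0.37 for RTS0068460 and 0.42 for RTS0068462 in CD68+ segments, and -0.01 and 0.06 in CD45- segments. The part of depth in the spread of the CD68+ levels was not tested.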

How the data were processed

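Barcodes were counted in 48 tissue segments and 2 no template controls. The authors deposited deduplicated counts per probe barcode, made with version 2.3.4 of the GeoMx NGS Pipeline, per the file headers. Duplicates made up 79.8% to 95.3% of aligned reads. Barcodes not listed were set to 0. Of 20238 identifiers, 63 outside the main range of numbers were left out. The area of a segment is a score with no unit in the deposited worksheets, and 54 worksheet rows were not used. Air samples carry ozone in their treatment label, and their titles, which say air, were followed. The old section's genotype comes from the sample labels, since the design text gives none.

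CPM levels use TMM-scaled sizes over all 48 segments. Fits used R 4.3.3 and edgeR 4.0.16 (glmQLFit, then glmQLFTest with two-sided p-values, adjusted by Benjamini-Hochberg over all identifiers that filterByExpr kept at a minimum count of 10) on sums per section, with section as a block, and were tested on simulated data. Region numbers pair the CD68+ with the CD45- segment, since both were cut from 1 region of 1 animal. The rule for named identifiers took the members, the 3 identifiers most like each, those within 3 numbers and the 2 just outside the choice, and RTS0076055 for its share of counts. Correlations were of log2 CPM, at a prior count of 2. DESeq2 1.42.0, other scalings and filters, left-out regions and sections, and a prior count of 10 were alternatives. Library sizes over all identifiers and a robust dispersion prior were added after seeing the data. The members and lists were chosen with earlier results of these data known. Intervals and limits for counts cover counting error only.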

Additional observations from a re-analysis of the deposited data

Results flagged for a closer look

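In CD45- segments of the wild type ozone section, injured region 4 stood far from the other injured regions for RTS0068462. It had 524 CPM, against 139, 179 and 170.4 CPM in regions 2, 3 and 9, and its gap to the nearest was 0.896 of the group's range. RTS0068460 was also highest there, at 916 CPM. Of 12 groups of 4 regions checked, with each member counted separately, 1 was picked out. Chance picks out about 1 in 20 at the rule's nominal rate, which was not checked on these levels. The members varied together, so these are not 12 separate checks.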

How the results depend on the processing

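The segment difference was below 0 for both members under all alternatives run. Leaving out 1 region or section gave -0.84 to -0.10 for RTS0068460 and -0.76 to -0.13 for RTS0068462, neither called. It passed the threshold with regions as libraries, at -1.09 (replicate block) and -0.95 (section block) for RTS0068460 and -0.92 and -0.82 for RTS0068462, where regions of 1 animal count as replicates. Calls over all identifiers were then 847 with the replicate block and 930 with the section block, against 435, and 87 with DESeq2. Leaving out 1 region or section gave 138 to 494, with 138 without the wild type ozone section. The differences between wild type ozone and air in CD68+ segments were smaller with a prior count of 10, at -2.60 and -2.04 for injured and -2.50 and -1.95 for peri-injured regions (RTS0068460 before RTS0068462). A larger prior count draws low counts towards each other by construction.

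The injury differences over the 3 ozone sections together kept their sign under all alternatives. The members were chosen for that sign in nearly the same counts, so nothing is read from its being kept. In CD68+ segments they ran from -1.91 to -0.91 for RTS0068460 and -1.75 to -0.83 for RTS0068462 when 1 region or section was left out. The smallest sizes were without the old mutant section. By section, young mutant CD45- segments went the other way, at 0.27 and 0.10. With RTS0076055 left out, the injury differences were -1.55 and -1.34 in CD68+ segments, against -1.53 and -1.32 with it. In CD45- segments they were -0.63 and -0.72, against -0.63 and -0.73. Their call in both segment types, which set the choice, was kept by RTS0068460 in 8 and by RTS0068462 in 13 of 30 alternatives. Several CD68+ segments held 8 counts or fewer of a member, which limits their ratios. The differences between the young mutant and wild type ozone sections kept their sign when 1 region was left out, while 4 of the 8 between the old and the young mutant did not, nor did that of RTS0068462 between peri-injured and air CD45- segments.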
